A study of Homo sapiens with 68 samples.

Results

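The PTBP genes encode a family of 3 RNA-binding proteins, and the data described here are the peaks that TLC-CLIP libraries listed on their transcripts. Members were all peaks whose name carries the Ensembl identifier of PTBP1 (ENSG00000011304), PTBP2 (ENSG00000117569) or PTBP3 (ENSG00000119314). They numbered 8946 of 15800601 listed peaks, or 0.0566%. PTBP2 held 5578 of them, PTBP3 held 2125 and PTBP1 held 1243. In hg19 coordinates, the listed peaks of PTBP1 spanned chr19:797444-812289 on the plus strand, those of PTBP2 chr1:97187353-97280342 on the plus strand and those of PTBP3 chr9:114980724-115095901 on the minus strand. PTBP1 had peaks in 61 of 68 libraries, PTBP2 in 64 and PTBP3 in 59.

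PTBP1, also called hnRNP I, binds pyrimidine-rich RNA and is best known for repressing exons that lie near its binding sites. It limits its own level, and that of its neuronal paralog PTBP2, by promoting exon skipping that leads to transcripts degraded by nonsense-mediated decay. PTBP3, also called ROD1, is the third paralog. The immunoprecipitated protein named hnRNPI in the libraries is therefore the product of 1 of the 3 genes. The other proteins profiled were hnRNPA1, a regulator of splice site choice, hnRNPc, which binds uridine tracts, and RBFOX2, a splicing regulator that recognises GCAUG.

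In TLC-CLIP, ultraviolet light links proteins to the RNA they touch, and the RNA fragments held by 1 immunoprecipitated protein are sequenced. All 68 libraries came from HEK293T, a human embryonic kidney cell line, in 34 groups of 2 replicates. The groups that carry the results used 50000 cells and 0.005 U of RNase. They differed in the antibody (hnRNPI, hnRNPA1, hnRNPc, or RBM9 for RBFOX2) and in preparation. In the 50k_lowRNase groups, complexes were purified on a gel (PAGE). The 50k_noPAGE groups omitted the gel, and the 50k_noPAGE_RecJ groups omitted it and used RecJ, an exonuclease that digests single-stranded DNA. The noUV and noUV_noPAGE groups were prepared with and without the gel and, per their titles, without crosslinking. Other groups used more RNase (hnRNPA1 and hnRNPc), fewer cells (hnRNPc and RBFOX2) or other gel regions (titled Background). Nothing in the labels says that replicates were separate cultures, so p-values measure the spread between these libraries, which may be technical.

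Lists of crosslinked 50k libraries at 0.005 U held 157375 to 523402 peaks, except hnRNPc_50k_lowRNase replicate 1, which held 3268. Lists without crosslinking held 18690 to 299616 peaks, and those of other gel regions 303 to 6716. The number of sequenced reads is unknown, so the lists cannot show how much of a difference in peak number comes from depth. Values are therefore given as peaks per 100,000 listed peaks of the same library. The last number in each peak name was read as its number of reads and is given as reads per 1,000,000 such reads of the library (RPM). The meaning of that number is not stated.

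hnRNPI peaks were found on all 3 transcripts in each of its 6 crosslinked 50k libraries. On PTBP1, whose protein is the one immunoprecipitated, the hnRNPI libraries listed from 2.63 to 6.45 peaks per 100,000, with a median of 2.87. This was the lowest median of the 4 proteins on PTBP1, although the ranges of hnRNPI, hnRNPA1 and hnRNPc overlapped. hnRNPA1 ranged from 3.06 to 5.11, with a median of 4.26. hnRNPc ranged from 3.07 to 7.91, with a median of 3.63, in the 5 libraries other than the short list. RBFOX2 ranged from 11.1 to 31.6, with a median of 25.1, and all 6 of its values lay above every value of the other proteins, the short hnRNPc list aside. That list held 4 PTBP1 peaks, equal to 122 per 100,000. The share of all genes on which RBFOX2 is separated in this way was not computed. In the limma fit without PAGE described below, 75.3% of genes differed between hnRNPI and RBFOX2.

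On PTBP2, hnRNPI again had the lowest median share, from 19.0 to 22.7 with a median of 21.4. The hnRNPA1 range was 27.6 to 32.9 with a median of 30.3. For hnRNPc it was 29.9 to 55.9 with a median of 31.6 without the short list, which had 214. RBFOX2 reached from 26.4 to 42.2, with a median of 36.7. No hnRNPI value overlapped those of another protein, whereas the other 3 proteins overlapped each other. How many genes show such a separation was not computed. In the limma fit without PAGE described below, hnRNPI differed from hnRNPA1, hnRNPc and RBFOX2 for 45.3%, 56.2% and 75.3% of genes.

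PTBP3 had its lowest median share in RBFOX2. The RBFOX2 share was from 6.91 to 11.8 with a median of 8.34. hnRNPA1 ranged from 9.16 to 14.8 with a median of 12.1, hnRNPI from 11.2 to 17.5 with a median of 15.5, and hnRNPc from 7.91 to 17.7 with a median of 17.4 in 5 libraries. The short hnRNPc list held no PTBP3 peak. Neighbours in this order overlapped.

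**Figure D1:**
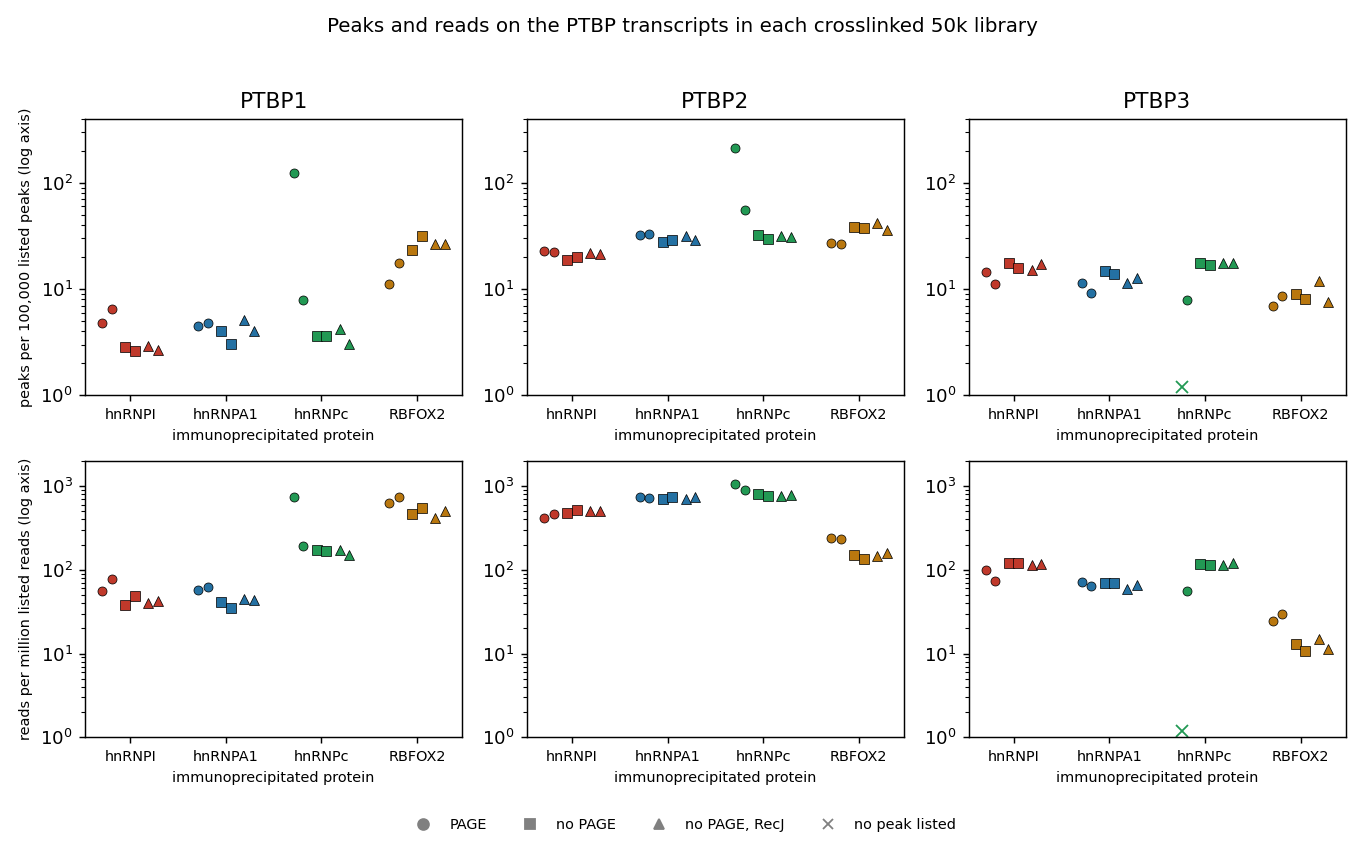
Peaks per 100,000 listed peaks (upper panels) and RPM (lower panels), both on log axes, for PTBP1, PTBP2 and PTBP3 in every crosslinked 50k library at 0.005 U. Each symbol is 1 library, with its shape giving the preparation and its horizontal place the immunoprecipitated protein, and × marks the library with no peak; RBFOX2 is highest on PTBP1 by both measures apart from the short hnRNPc list, whereas on PTBP2 it is lowest by reads (135 to 238) and not by peaks.

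Reads gave another order than peaks for several pairs. On PTBP1, hnRNPI had 38.5 to 76.9 RPM and hnRNPA1 35.0 to 62.8, while hnRNPc had 148 to 192 without the short list and RBFOX2 had 413 to 737. On PTBP2, hnRNPI had 420 to 512, hnRNPA1 694 to 747, hnRNPc 750 to 904 without the short list and RBFOX2 135 to 238. On PTBP3, hnRNPI had 72.6 to 120, hnRNPA1 58.6 to 72.4, hnRNPc 56.0 to 119 without the short list and RBFOX2 10.7 to 29.7. RBFOX2 therefore had few reads for its number of PTBP2 peaks, with a median of 22.3 reads a peak against 60.0 for hnRNPI. On PTBP3 these medians were 8.21 and 18.0, and on PTBP1 103 and 36.4. The PTBP2 pattern is not particular to it. In the fits without PAGE described below, the all-gene median of hnRNPI minus RBFOX2 was -0.13 by peaks and 1.96 by reads (log2).

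Per length of the listed span, hnRNPI peaks were about as dense on PTBP1 as on PTBP2. The median was 0.674 peaks per kb on PTBP1 (range 0.606 to 1.28), 0.753 on PTBP2 (0.710 to 0.796) and 0.460 on PTBP3 (0.287 to 0.538). The PTBP1 and PTBP2 ranges overlapped and the PTBP3 range lay below both. RBFOX2 had 2.69 peaks per kb on PTBP1 (1.95 to 3.44), 0.651 on PTBP2 (0.591 to 0.753) and 0.139 on PTBP3 (0.104 to 0.165), with no overlap between the 3 transcripts. Among all genes with a peak in the same library, the hnRNPI peak number of PTBP1 exceeded that of 48.7% to 70.3% of genes. For PTBP2 it exceeded 90.5% to 92.7%, and for PTBP3 82.5% to 89.4%.

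Positions covered by a peak in at least 5 of the 6 crosslinked 50k libraries of a protein, with runs less than 30 nt apart joined, are called recurrent sites. They were chosen on the values of the protein itself, so they are described without a test. hnRNPI had 4 recurrent sites on PTBP1, 31 on PTBP2 and 19 on PTBP3. hnRNPA1 had 10, 95 and 19, hnRNPc had 7, 52 and 4, and RBFOX2 had 18, 26 and 3. For hnRNPc, the threshold amounted to all 5 long lists wherever the short list had no peak. The annotation of hg19 was not used here, so sites are placed by their distance from the ends of the listed span, and whether they are exonic, intronic or in a UTR is not given.

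On PTBP1, hnRNPI reads were concentrated in 2 places. With the span split into 10 equal parts numbered from the 5′ end, part 7 held a median of 31.5% of hnRNPI reads and part 10 held 50.1%. The first-ranked site, chr19:811818-811992, began 14374 nt from the listed 5′ end and ended 297 nt before the listed 3′ end. Its highest peak had 73 and 62 reads in the libraries with PAGE, 92 and 120 without PAGE and 105 and 136 without PAGE with RecJ. It was the most read place on PTBP1 for hnRNPI and was not particular to it. All 6 hnRNPc libraries had a peak there, with 16 to 323 reads, as did all 6 hnRNPA1 libraries, with 12 to 41. No RBFOX2 library did. Without crosslinking, the highest PTBP1 peak of hnRNPc also lay over this site, with 305 and 144 reads with PAGE and 189 and 175 without it. The same held for hnRNPI with PAGE, at 9 and 14 reads. In the hnRNPI libraries without PAGE and crosslinking, the highest PTBP1 peak lay elsewhere.

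The second-ranked hnRNPI site on PTBP1 lay in part 7 of the span and the third crossed from part 7 into part 8, which held a median of 9.09% of hnRNPI reads. RBFOX2 also had peaks there. The second-ranked site, chr19:807557-807650, had 8 and 38 reads with PAGE, 90 and 64 without it and 55 and 62 with RecJ. Its lowest value was in hnRNPI_50k_lowRNase replicate 1. The third, chr19:807762-807881, had 49 and 40, 39 and 64, and 43 and 44 reads in the same order. RBFOX2 had a peak over the third site in 6 of 6 libraries, with 75 to 174 reads, and over the second in 4 of 6. hnRNPA1 had none at either, and hnRNPc had 1 peak, of 9 reads, at the third. The fourth site, chr19:811628-811708, fell just outside the ranking with a median of 42.5 reads, next to 43.5 for the third, and lay beside the first near the 3′ end.

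The RBFOX2 reads on PTBP1 covered a stretch further upstream. Part 6 held a median of 38.7% of them, part 7 held 25.9% and part 8 held 16.8%. The leading RBFOX2 site, chr19:805664-805941, had 432 and 316 reads with PAGE, 260 and 212 without and 248 and 230 with RecJ. None of the 6 hnRNPI libraries had a peak there. hnRNPc reads instead lay mostly in part 10, with a median of 79.9%. Its leading site, chr19:811771-811994, contained the first hnRNPI site. hnRNPA1 reads were spread more widely, with 20.4% in part 3, 19.2% in part 4 and 35.2% in part 10. These leading sites of the other proteins follow the same ranking as the hnRNPI sites, but which of them to describe was chosen after their values were seen.

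On PTBP2, the transcript that PTBP1 is known to repress, hnRNPI reads had 1 main cluster. Part 7 of the span held a median of 48.8% of reads (44.3% to 54.9% over 6 libraries), and part 10 held 18.9%. The first-ranked site, chr1:97245746-97245963, began 58393 nt from the listed 5′ end. Its highest peak had 238 and 177 reads with PAGE, 545 and 369 without and 450 and 516 with RecJ. All peaks over the site together held a median of 13.8% of the PTBP2 reads of a library. None of the 18 crosslinked 50k libraries of the other proteins at 0.005 U had a peak over it. The highest PTBP2 peak of noUV_noPAGE_hnRNPI replicate 2 lay over it, with 31 reads. Little overlap was usual on PTBP2, where 5 of 31 recurrent hnRNPI sites overlapped a recurrent site of another protein. How often hnRNPI sites of all genes lack a peak of another protein was not computed.

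The next sites in rank lay shortly downstream. The site chr1:97246123-97246267 had 184 and 159 reads with PAGE, 361 and 315 without and 270 and 309 with RecJ. hnRNPA1 had a peak over it in 3 of 6 libraries and RBFOX2 in 1, of 5 reads. The site chr1:97246973-97247169 had 124 and 73 reads with PAGE, 244 and 280 without and 293 and 263 with RecJ. hnRNPA1 had a peak over it in 6 of 6 libraries, at 25 to 56 reads, and neither hnRNPc nor RBFOX2 had any.

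A further hnRNPI site, chr1:97271644-97271989, was the fourth in rank and lay between the leading RBFOX2 sites. It is named outside the ranking rule, after its values were seen. It had 181 and 148 reads with PAGE, 239 and 240 without and 230 and 248 with RecJ. The first RBFOX2 site, chr1:97272093-97272253, lay downstream of it, with 224 and 115, 196 and 186, and 227 and 270 RBFOX2 reads. The second, chr1:97271297-97271483, lay upstream, with 181 and 155, 137 and 91, and 129 and 113. hnRNPI libraries had a peak over the downstream RBFOX2 site in 4 of 6, at up to 38 reads, and over the upstream one in none. Part 10 of PTBP2 held a median of 49.7% of RBFOX2 reads.

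The other proteins were read elsewhere on PTBP2. For hnRNPA1, parts 8 and 9 held medians of 24.2% and 34.0%, and its leading site chr1:97262342-97262477 had 179 and 151, 450 and 471, and 452 and 420 reads. hnRNPI had a peak over that site in 1 of 6 libraries. For hnRNPc, part 8 held 36.8%. Its leading site, chr1:97257633-97257722, had a peak in all 6 hnRNPc libraries and in none of the other 18.

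On PTBP3, hnRNPI reads were concentrated in part 9 of the span, with a median of 53.0% (33.3% to 54.1%). The first-ranked site, chr9:114994026-114994189, had 34 and 12 reads with PAGE, 153 and 136 without and 196 and 162 with RecJ. Both PAGE libraries were below all 4 libraries without PAGE, also by the RPM of all peaks over the site (6.98 and 5.24 against 21.8 to 29.4). hnRNPc had a peak over it in 2 of 6 libraries, at up to 14 reads, and hnRNPA1 and RBFOX2 in none.

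The second PTBP3 site, chr9:115073178-115073256, had 34 and 35, 42 and 33, and 34 and 32 hnRNPI reads. All 6 RBFOX2 libraries had a peak there, at 7 to 27 reads, and it overlapped the leading RBFOX2 site on PTBP3. The third site, chr9:115002209-115002286, had 20 and 10, 34 and 30, and 37 and 27 reads, with no peak of another protein in 18 libraries. Part 10 of PTBP3 held the largest median share for the other 3 proteins: 38.8% for hnRNPA1, 46.3% for hnRNPc and 44.9% for RBFOX2.

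**Figure D2:**
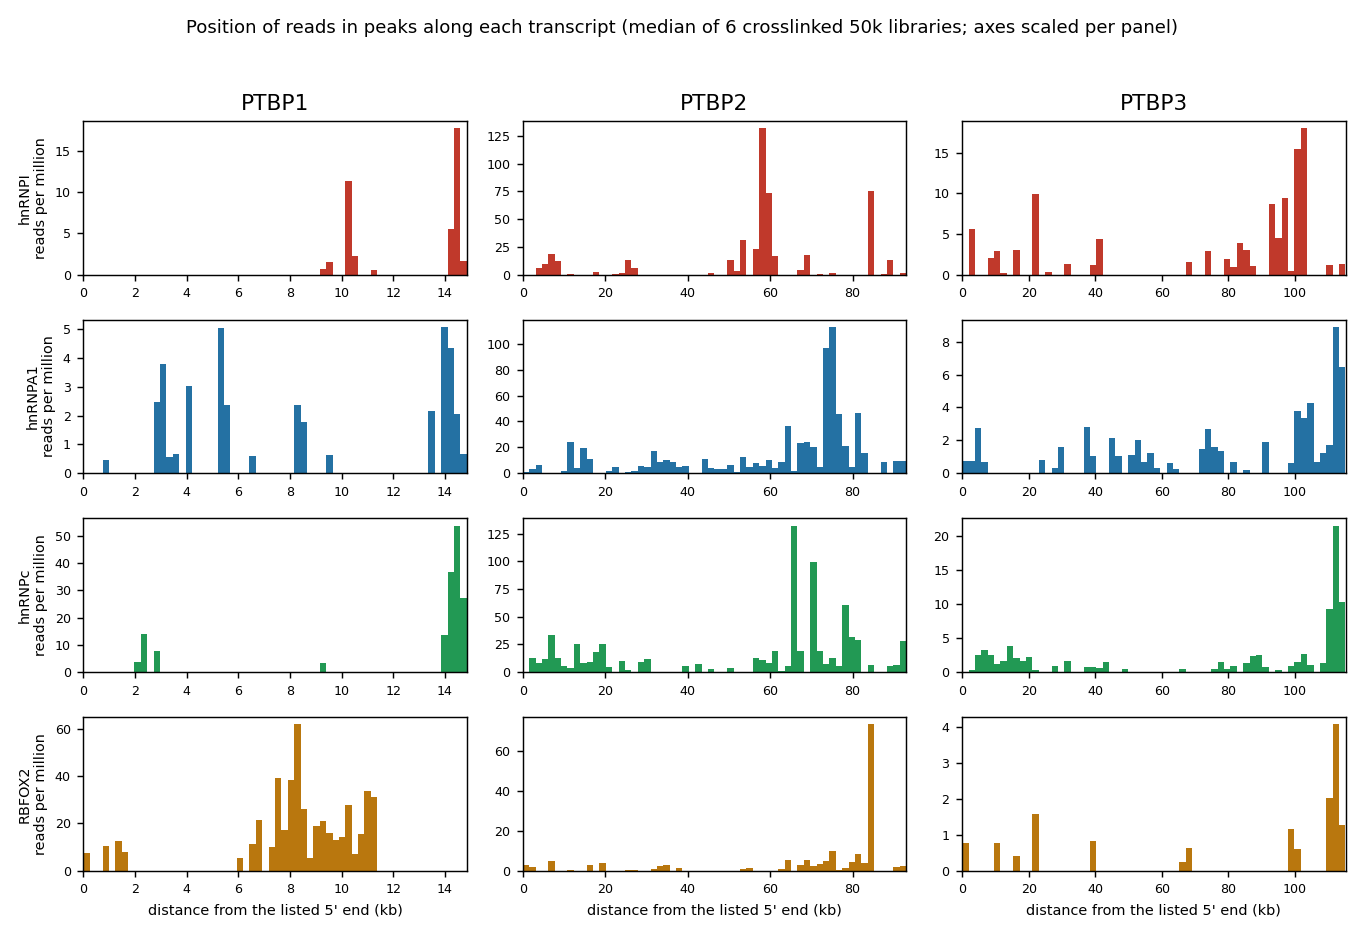
Median RPM over the 6 crosslinked 50k libraries of each protein (rows), summed in 60 equal bins along the listed span of each transcript (columns); the horizontal axis is the distance from the listed 5′ end in kb and each panel has its own vertical scale. hnRNPI is concentrated in parts 7 and 10 of 10 of PTBP1, part 7 of PTBP2 and part 9 of PTBP3, while RBFOX2 has its largest share in part 6 of PTBP1 and part 10 of PTBP2 and PTBP3.

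Overlap between the recurrent sites of different proteins was uneven between the 3 transcripts. On PTBP1, 3 of 4 hnRNPI sites (75%) shared at least 1 nt with a recurrent site of another protein. These were 2 of 4 with hnRNPA1 (20% of its 10 sites), 2 of 4 with hnRNPc (28.6% of its 7) and 1 of 4 with RBFOX2 (5.56% of its 18). On PTBP2, 5 of 31 (16.1%) did, with 3 hnRNPA1, 1 hnRNPc and 1 RBFOX2 overlap. Without hnRNPI_50k_lowRNase replicate 2, the PTBP2 overlap was 26.5% of 34 sites and the PTBP1 overlap 100% of 3. On PTBP3, 1 of 19 (5.26%) did, at the RBFOX2 site described above. The difference between transcripts was not tested, and PTBP1 has the shortest listed span. Its percentage rests on 4 hnRNPI sites in 14.8 kb, where the other proteins had 35 recurrent sites. The share of overlapping sites over all genes was not computed, so whether these percentages are unusual is unknown.

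**Figure D3:**
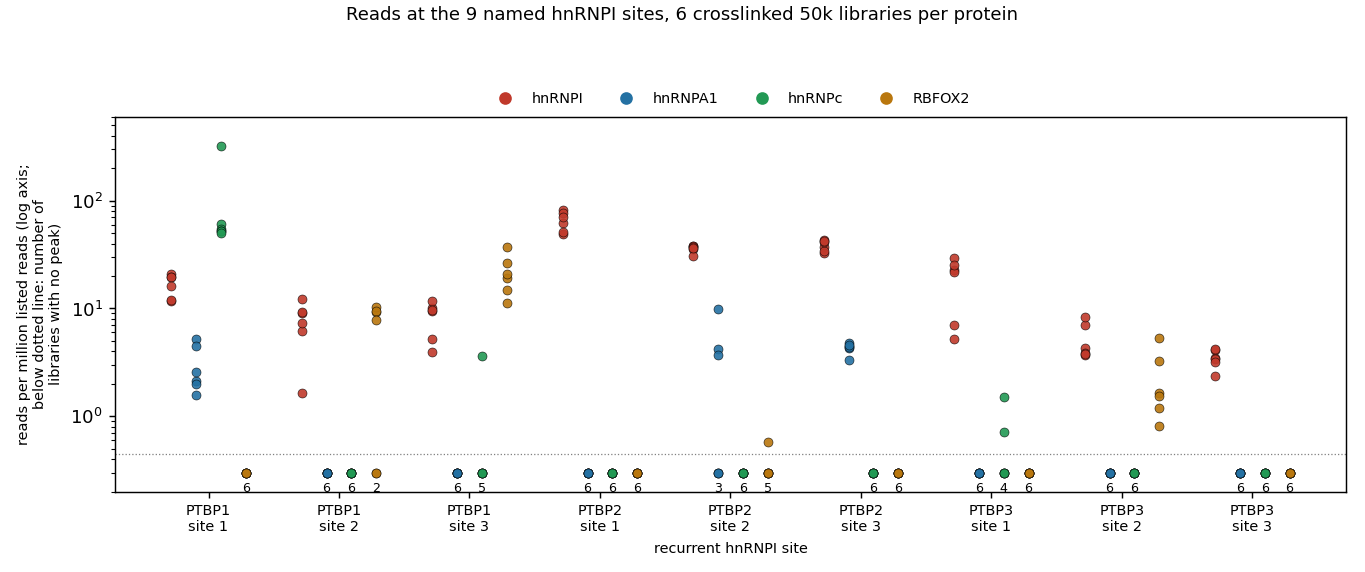
Summed reads of the peaks over each of the 9 ranked hnRNPI sites, in RPM on a log axis, in the 6 crosslinked 50k libraries of each protein; points are libraries, and digits below the dotted line count libraries with no peak. The first site of PTBP2 and the third of PTBP3 have hnRNPI peaks only among these 24 libraries, and the first PTBP1 site is higher in every hnRNPc library than in any hnRNPI library.

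Differences between proteins were tested without PAGE, in a limma fit over 10458 genes and 24 libraries, on log2 of peaks plus 0.5 per 100,000 listed peaks. A call is a Benjamini-Hochberg adjusted p under 0.05 over all genes. Calls were common: hnRNPI differed from hnRNPA1 for 45.3% of genes, from hnRNPc for 56.2% and from RBFOX2 for 75.3%. A call on a PTBP transcript is therefore no rarity in itself. By share of peaks, the median log2 difference over all genes was -0.14 from hnRNPA1, -0.17 from hnRNPc and -0.13 from RBFOX2.

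PTBP1 carried fewer hnRNPI peaks than RBFOX2 peaks. The 4 hnRNPI libraries without PAGE had 2.83, 2.63, 2.92 and 2.69 peaks per 100,000 and the RBFOX2 libraries 23.5, 31.6, 26.7 and 26.8. The log2 difference was -3.23 (SE 0.19, adjusted p = 4.37e-11), a share 9.39-fold lower in hnRNPI, against a median of -0.13 over all genes. Only 8.67% of genes had a lower value in this contrast. It passed in all 24 fits that left out 1 library. Against hnRNPA1, with 4.00, 3.06, 5.11 and 4.06, the log2 difference was -0.49 (SE 0.19, adjusted p = 0.0431). That call was lost in 10 of 24 fits leaving out 1 library, where adjusted p ranged from 0.0295 to 0.163, and by reads the difference was 0.02 (adjusted p = 0.942, with 55.1% of genes called). Against hnRNPc, with 3.63, 3.60, 4.22 and 3.07, it was -0.35 and did not pass (adjusted p = 0.124). By reads that difference was -1.97 (SE 0.23, adjusted p = 2.39e-06), where 61.4% of genes were called.

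PTBP2 had a lower share of hnRNPI peaks than of each other protein. The hnRNPI libraries had 19.0, 20.2, 21.6 and 21.2 peaks per 100,000. The hnRNPA1 libraries had 27.6, 29.2, 31.3 and 29.2, a log2 difference of -0.51 (SE 0.12, adjusted p = 0.00167). hnRNPc had 32.2, 29.9, 31.6 and 30.7, a difference of -0.60 (SE 0.12, adjusted p = 0.000301). RBFOX2 had 38.1, 37.8, 42.2 and 35.6, a difference of -0.91 (SE 0.12, adjusted p = 1.3e-06). These values were not extreme among genes: 34.5%, 33.7% and 35.4% of genes lay lower.

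The direction of the PTBP2 difference from RBFOX2 depended on the measure. By share of reads it was 1.76 higher in hnRNPI (SE 0.19, adjusted p = 4.9e-07). The median over all genes was itself 1.96 in that measure, and 86.5% of genes were called. The peak-share differences from hnRNPA1, hnRNPc and RBFOX2 were also fitted after centring each library on its median gene. The values above minus the centred ones were -0.21, -0.21 and -0.15. With that scaling the PTBP1 and PTBP2 calls against hnRNPA1 were lost.

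PTBP3 had more hnRNPI peaks than RBFOX2 peaks. hnRNPI had 17.5, 15.8, 15.2 and 17.3 per 100,000 and RBFOX2 8.90, 8.05, 11.8 and 7.48, a log2 difference of 0.84 (SE 0.15, adjusted p = 6.77e-05). By reads it was 3.24 (SE 0.12, adjusted p = 1.22e-12), against a median of 1.96 over all genes, with 86.5% called. By peaks the median was -0.13, and 71.2% of genes lay lower. Against hnRNPA1, with 14.8, 13.8, 11.3 and 12.8, the difference of 0.33 did not pass (SE 0.15, adjusted p = 0.0926). By reads that difference was 0.84 and passed (SE 0.12, adjusted p = 2e-05, 55.1% of genes called). Against hnRNPc, with 17.7, 16.7, 17.4 and 17.4, it was -0.07 (SE 0.15, adjusted p = 0.709).

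**Figure D4:**
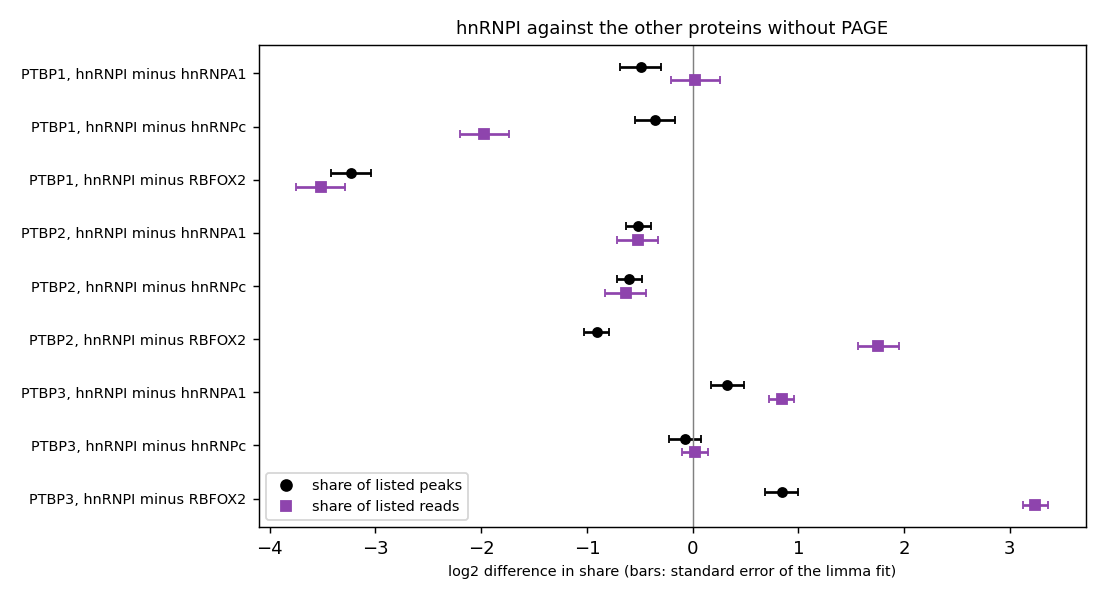
Log2 difference between hnRNPI and each other protein without PAGE (horizontal axis) for each PTBP transcript (rows), from limma fits on the share of listed peaks (circles) and of listed reads (squares); bars are the standard error. PTBP1 against RBFOX2 (-3.23 and -3.52) and PTBP3 against RBFOX2 (0.84 and 3.24) have the same sign by both measures, and PTBP2 against RBFOX2 (-0.91 and 1.76) does not. The median over all genes against RBFOX2 was -0.13 by peaks and 1.96 by reads.

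Libraries without crosslinking address which fragments co-purify with the protein or the beads. Their accessions form a separate run from the 50k libraries, and crosslinking and that run cannot be told apart. On PTBP1, hnRNPI without crosslinking and without PAGE had 43.1 and 38.0 peaks per 100,000, from 19 and 30 peaks. The crosslinked libraries had 2.83 and 2.63, from 10 and 9 peaks. The log2 difference was 3.85 (SE 0.27, adjusted p = 7.02e-10), against a median of -0.30 over genes, and 70.9% of genes were called. By reads it was 2.83 (SE 0.33, adjusted p = 1.1e-06), against a median of -2.86, with 81% of genes called. The lists were also shorter, at 44086 and 78945 peaks, and the part of list length in the result was not tested.

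The PTBP1 share was also higher without crosslinking for the other proteins, by a smaller amount. For hnRNPA1 it was 11.1 and 6.62 against 4.00 and 3.06, a log2 difference of 1.30 (adjusted p = 0.00275, 20.5% of genes called). For hnRNPc it was 10.1 and 13.6 against 3.63 and 3.60, a difference of 1.69 (adjusted p = 0.000619, 13.7% called). For RBFOX2 it was 53.0 and 42.5 against 23.5 and 31.6, a difference of 0.81 (adjusted p = 0.0209, 44.9% called). The hnRNPA1 and RBFOX2 calls were each lost in 2 of 24 fits leaving out 1 library. For hnRNPA1 these were the fits without hnRNPA1_50k_noPAGE replicate 2 (1.11) and noUV_noPAGE_hnRNPA1 replicate 1 (0.94). For RBFOX2 they were those without RBFOX2_50k_noPAGE replicate 1 (0.60) and noUV_noPAGE_RBFOX2 replicate 1 (0.65). With peaks of p below 1e-05 the hnRNPA1 call was lost (0.29, adjusted p = 0.440). By reads, the hnRNPA1 and RBFOX2 differences were -0.06 and -0.32 and did not pass (28.9% and 48.1% of genes called), and the hnRNPc difference was 1.14 (adjusted p = 0.0220, 20.9% called). The hnRNPI difference exceeded the mean of the other 3 by 2.58 on the log2 scale (SE 0.31, adjusted p = 1.88e-06), in a contrast where 58.4% of genes were called. By reads it exceeded it by 2.58 as well (SE 0.38, adjusted p = 2.01e-05, 74.9% called).

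On PTBP3, the share was higher without crosslinking in hnRNPI and lower in hnRNPA1 and RBFOX2. hnRNPI had 43.1 and 34.2 peaks per 100,000 without crosslinking against 17.5 and 15.8 with it, a log2 difference of 1.23 (SE 0.22, adjusted p = 6.46e-05). The median over all genes was -0.30, 70.9% of genes were called and 73.4% lay lower. hnRNPA1 had 8.87 and 7.64 against 14.8 and 13.8, a difference of -0.76 (adjusted p = 0.0198, 20.5% of genes called). RBFOX2 had 3.79 and 4.90 against 8.90 and 8.05, a difference of -0.76 (adjusted p = 0.00889, 44.9% called), from 2 and 3 peaks. The hnRNPA1 call was lost without any 1 of its 4 libraries (-0.86 to -0.65), and the RBFOX2 call without RBFOX2_50k_noPAGE replicate 1 (-0.69) or noUV_noPAGE_RBFOX2 replicate 1 (-0.62). The RBFOX2 call was also lost with a pseudocount of 2 (-0.31, adjusted p = 0.215) and with median scaling (-0.50, adjusted p = 0.0706), and the hnRNPA1 call with peaks of p below 1e-05 (-0.15, adjusted p = 0.725). hnRNPc did not pass (-0.37, adjusted p = 0.286), and its sign turned by reads (0.17) and with peaks of p below 1e-05 (0.68). The hnRNPI difference exceeded the mean of the others by 1.85 (SE 0.25, adjusted p = 7.08e-06, 58.4% called).

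PTBP2 had a lower share without crosslinking in hnRNPI, at 9.07 and 10.1 against 19.0 and 20.2. The shares without crosslinking came from only 4 and 8 peaks, against 67 and 69 with it. The log2 difference was -0.91 (SE 0.17, adjusted p = 9.71e-05), and by reads -4.37 (SE 0.27, adjusted p = 8.51e-10), next to all-gene medians of -0.30 and -2.86. By these measures 70.9% and 81% of genes were called, and by peaks 40.1% of genes lay lower. RBFOX2 had 18.9 and 16.3 against 38.1 and 37.8, a difference of -1.05 (SE 0.17, adjusted p = 5.64e-05, 44.9% called). With peaks of p below 1e-05 that call was lost (-0.44, adjusted p = 0.0754). hnRNPA1 had 28.3 and 30.1 against 27.6 and 29.2 and did not pass (0.04, adjusted p = 0.880), although by reads it was lower (-1.57, adjusted p = 0.000507, 28.9% called). hnRNPc had 58.1 and 41.3 against 32.2 and 29.9, a difference of 0.66 (adjusted p = 0.0137, 13.7% called). That call was lost without either crosslinked library (0.71 and 0.61) or without noUV_noPAGE_hnRNPc replicate 1 (0.41). It was also lost with peaks of p below 1e-05 (0.47, adjusted p = 0.0767). The hnRNPI difference was below the mean of the others by 0.79 (log2 -0.79, SE 0.20, adjusted p = 0.00198, 58.4% called). After centring on the median gene it was -0.39 and did not pass (adjusted p = 0.110).

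**Figure D5:**
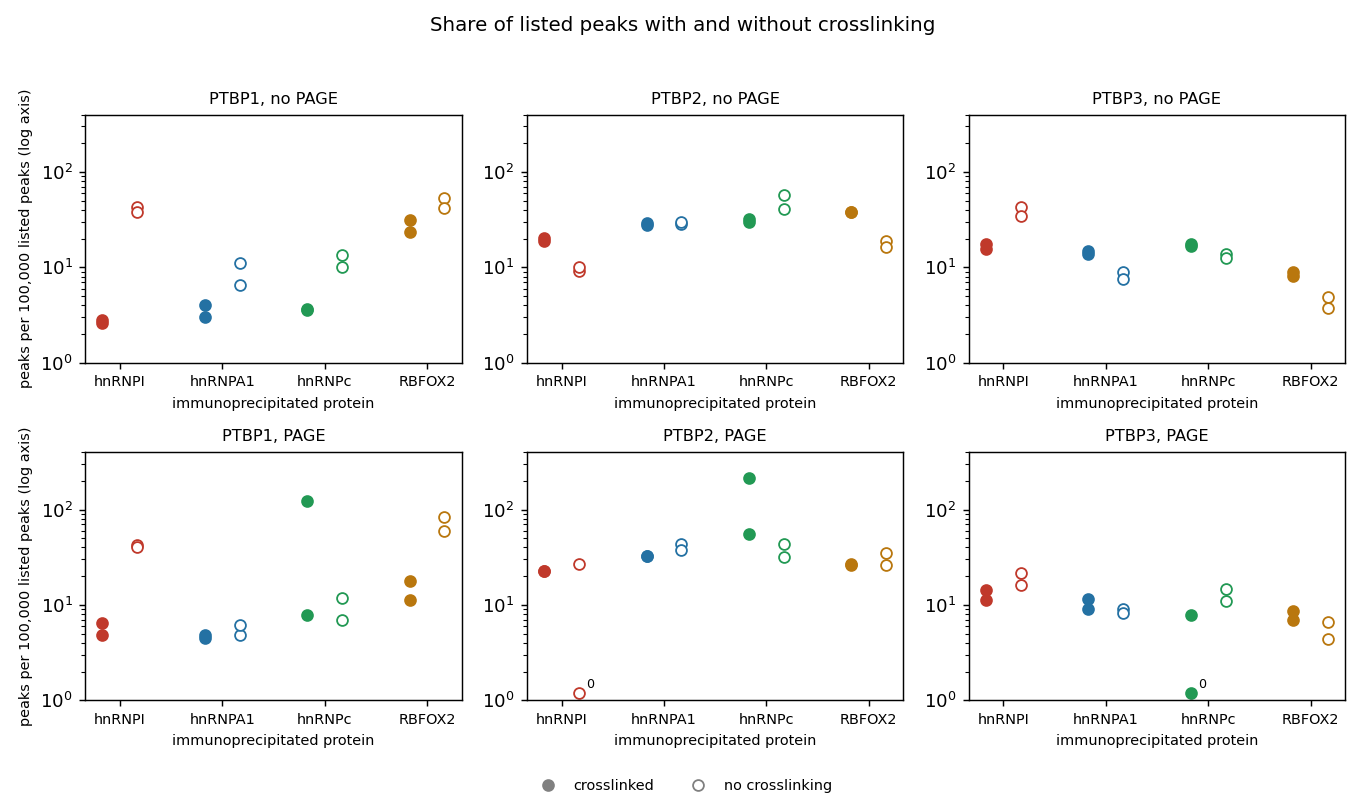
Peaks per 100,000 listed peaks (log axis) on each PTBP transcript with crosslinking (filled) and without (open), for lists without PAGE (upper panels) and with PAGE (lower panels); each point is 1 library, and points marked 0 had no peak. The hnRNPI share of PTBP1 is higher without crosslinking in both preparations, 38.0 to 43.1 against 2.63 to 6.45.

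The recurrent hnRNPI sites were recovered to different degrees without crosslinking. Without PAGE, the replicates had peaks over 2 and 3 of the 4 PTBP1 sites, 3 and 5 of the 31 PTBP2 sites and 4 and 5 of the 19 PTBP3 sites. Of the PTBP1 peaks, 3 of 19 and 4 of 30 overlapped a recurrent hnRNPI site, while 8 and 19 overlapped a peak of at least 1 crosslinked hnRNPI library. Of the PTBP2 peaks, 4 of 4 and 7 of 8 overlapped a recurrent site, and of the PTBP3 peaks 8 of 19 and 7 of 27. The difference between transcripts was not tested. On PTBP3, the highest peaks without crosslinking had 135 and 171 reads, at chr9:114994051-114994111 and chr9:114994020-114994140, over the first-ranked site. All peaks over that site held 43.6% and 17.9% of the PTBP3 reads of their libraries, next to a median of 18.4% with crosslinking. Neither hnRNPA1, hnRNPc nor RBFOX2 had a peak over that site without crosslinking, in any of their 4 libraries each. Their own recurrent sites were also recovered in part without crosslinking and PAGE, in lists of different length. On PTBP1, PTBP2 and PTBP3, hnRNPA1 had peaks over 4 and 2 of 10, 39 and 44 of 95 and 7 and 5 of 19. For hnRNPc these were 4 and 4 of 7, 25 and 22 of 52 and 4 and 2 of 4. For RBFOX2 they were 6 and 7 of 18, 3 and 3 of 26 and 0 and 0 of 3.

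With PAGE, the hnRNPI share of PTBP1 was 42.8 and 40.8 peaks per 100,000 without crosslinking and 4.79 and 6.45 with it. In a separate fit over 9651 genes and 16 libraries, the log2 difference was 2.93 (SE 0.84, adjusted p = 0.0235), with 19.3% of genes called. It was lost when any 1 of the 4 hnRNPI libraries was left out (2.72 to 3.14, adjusted p up to 0.138), and without the short hnRNPc list the adjusted p was 0.00016, with 37.7% of genes called. RBFOX2 had 59.7 and 82.9 against 11.1 and 17.8, a difference of 2.34 that did not pass (adjusted p = 0.0611, 19.7% called). The SE of this difference was 0.84, and the hnRNPc libraries do not enter it. It stayed at 2.34 and passed without the short list (SE 0.38) or without hnRNPc_50k_lowRNase replicate 2 (SE 0.37). It also passed with a pseudocount of 2 (2.39), without the filter (2.34), with median scaling (2.68) and with peaks joined (2.88), where adjusted p ranged from 0.00808 to 0.0250, whereas by reads its sign turned (-1.07, adjusted p = 0.178). For hnRNPA1 the PTBP1 difference was 0.30 and for hnRNPc -1.86, and neither passed, where 0.0207% and 0% of genes were called (1.95% and 2.33% without the short list). The hnRNPI difference minus the mean of the others was 2.68 (SE 0.97, adjusted p = 0.103, 7.73% called). On PTBP2, noUV_hnRNPI replicate 1 had no peak and replicate 2 had 27.2 per 100,000, against 22.7 and 22.4 with crosslinking. The difference of -1.38 did not pass (adjusted p = 0.235), and it was 0.33 without replicate 1 and -3.09 without replicate 2 (adjusted p = 0.00325). On PTBP3, 21.4 and 16.3 stood against 14.4 and 11.2 (0.68, adjusted p = 0.305).

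Between proteins with PAGE, hnRNPI differed from hnRNPc on PTBP1 by -2.55 (SE 0.84, adjusted p = 0.0426) and on PTBP2 by -2.32 (SE 0.78, adjusted p = 0.0474), with 19.7% of genes called. Without the short list they were -0.51 (adjusted p = 0.477) and -1.30 (adjusted p = 0.334, 21.4% called), and without hnRNPc_50k_lowRNase replicate 2 they were -4.59 and -3.34. The calls were lost in 14 and 13 of the 16 fits that left out 1 library. Against RBFOX2, the PTBP1 difference was -1.32 and did not pass (adjusted p = 0.339, 5.16% called), but it passed without the short list (adjusted p = 0.0213, 28.8% called) or without the other hnRNPc replicate (adjusted p = 0.0189). No PTBP transcript passed against hnRNPA1, where 0.0104% of genes were called (1 gene, and 997 or 10.3% without the short list).

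Many sites were found again at lower cell numbers. The RNase was also lower in the 10k (0.001 U) and 1k (0.0001 U) groups. Of the 52 recurrent hnRNPc sites on PTBP2, the 10k libraries had peaks over 43 and 46 and the 1k libraries over 35 and 36. The libraries titled 500_noPAGE, at an unchanged 0.005 U and with a cell number nevertheless labelled 50000, had peaks over 40 and 38. Of the 18 RBFOX2 sites on PTBP1, the 10k libraries recovered 11 and 11 and the 1k libraries 8 and 7. RBFOX2 kept 17.1 and 11.9 PTBP1 peaks per 100,000 at 10k and 40.6 and 34.4 at 1k, while its PTBP3 share was 6.40 and 5.38 at 10k and 2.03 and 2.76 at 1k, from 1 and 2 peaks. With 0.025 U of RNase, hnRNPA1 recovered 76 and 76 of its 95 PTBP2 sites and hnRNPc 43 and 46 of 52. hnRNPI was profiled only at 50000 cells. In the gel regions titled Background, from hnRNPc immunoprecipitations of 10000 cells, PTBP1 had 3 and 0 peaks at 75-100 kDa and none in the others. PTBP2 had 8 and 7 there, 1 and 1 at 50-75 kDa, 0 and 1 at 150-250 kDa and none at 100-150 kDa, and PTBP3 had no peak in any of the 8 libraries.

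Across the 12 group means without PAGE, the share of the 3 transcripts did not move together. Pearson's r of the log2 share was -0.18 between PTBP1 and PTBP2, -0.28 between PTBP1 and PTBP3 and -0.44 between PTBP2 and PTBP3. The genes most like PTBP1 over these means were ENSG00000071626 (r = 0.994) and ENSG00000105808 (r = 0.991). For PTBP2 they were ENSG00000166483 (0.973) and ENSG00000268750 (0.970), and for PTBP3 ENSG00000155252 (0.973) and ENSG00000156795 (0.971). These are descriptions over 12 points that share their libraries and list lengths.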

How the data were processed

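The authors deposited 1 peak list per library, each with an unadjusted p-value per peak and a name holding an Ensembl gene identifier and a last number of at least 4. CLIPper is named only in the names of the lists. Per the submitters' processing notes, hg19, STAR 2.7.3a, UMI-tools 1.0.1 and bcl2fastq were used. Peaks lie within genes, were listed per library, and peaks of overlapping genes can be assigned to either. Largest deposited p-value: 0.00755.

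Peaks per gene were summed, 0.5 added, divided by listed peaks and tested on the log2 scale with limma 3.58.1 (R 4.3.3, lmFit and eBayes with trend), over genes with at least 10 peaks in at least 2 libraries, in 1 fit without PAGE (12 groups, residual df 12) and 1 with PAGE (8 groups, residual df 8); p-values were adjusted by Benjamini-Hochberg. The script was tested on simulated data. Ranked sites were the 3 recurrent hnRNPI sites per gene with the best worst rank, by reads of the highest overlapping peak, over 6 libraries. Genes of like pattern were the 2 with the highest r. Alternatives were pseudocount, filter, scaling, p below 1e-05, joining of peaks, reads, replicate block and leaving out each library; a fit on crosslinked libraries only was added after seeing the data. The members, lists and tests were chosen with earlier results of these data known. Replicate numbers did not pair libraries: no correlation of deviations exceeded 0.1 among 66 group pairs without PAGE and 28 with it. A list of PTBP1 partner genes could not be used, since the gene table at hand held an Ensembl identifier in 0 of 59792 rows. No genome of the build was at hand, so no sequence is given. Depth is unknown, and no count interval could be computed.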

Additional observations from a re-analysis of the deposited data

Results flagged for a closer look

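The effect of leaving out crosslinking, without PAGE, differed between hnRNPI and the mean of the other 3 proteins for each PTBP transcript by an interaction contrast in the limma fit. On PTBP1 the log2 difference was 2.58 (SE 0.31, adjusted p = 1.88e-06), and hnRNPI libraries rose by 3.85 while the others rose by 0.81 to 1.69. On PTBP3 it was 1.85 (SE 0.25, adjusted p = 7.08e-06), with 1.23 in hnRNPI and -0.76 to -0.37 in the others. On PTBP2 it was -0.79 (SE 0.20, adjusted p = 0.00198), against a median of -0.26 over all genes. With median scaling the PTBP2 value was -0.39 and did not pass (adjusted p = 0.110). In this contrast 58.4% of genes were called. With PAGE, none of the 3 passed (PTBP1 2.68, adjusted p = 0.103). The PTBP1 value was 2.00 without the short hnRNPc list and 3.36 without the other hnRNPc replicate. In the latter fit, the short list was the only crosslinked hnRNPc list with PAGE. PTBP1 passed with a pseudocount of 2 (2.74, adjusted p = 0.0210), median scaling (2.39, adjusted p = 0.0385), peaks of p below 1e-05 (3.26, adjusted p = 0.0109) and by reads (2.83, adjusted p = 0.0171).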

How the results depend on the processing

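Without PAGE, the PTBP1 difference from RBFOX2 and the effects of leaving out crosslinking on hnRNPI kept their direction and call under every alternative run. Many genes are called, sequencing depth is unknown and each group has 2 libraries, which limits the rest. The causes of the changes below were not tested.

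A pseudocount of 2 gave -0.39 for PTBP1 against hnRNPA1 and -0.31 for no crosslinking in RBFOX2 on PTBP3, both without PAGE (calls lost). With PAGE it gave, on PTBP3, -0.80 for hnRNPI against hnRNPc, -0.80 for the no-crosslinking effect of hnRNPc and 0.62 for that of RBFOX2 (signs turned). Without the filter more genes were tested, and 8789, 9726 and 13814 were called for hnRNPI against hnRNPA1, hnRNPc and RBFOX2 and 13613 for no crosslinking in hnRNPI, all without PAGE, against 4736, 5876, 7880 and 7410.

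Median scaling without PAGE gave, against hnRNPA1, -0.28 for PTBP1 and -0.30 for PTBP2 (calls lost) and 0.54 for PTBP3 (call gained), and turned PTBP3 against hnRNPc to 0.14 and the PTBP2 no-crosslinking effect of hnRNPA1 to -0.085. It lost the PTBP3 no-crosslinking call of RBFOX2 (-0.50). With PAGE, hnRNPI against hnRNPc was -1.61 for PTBP1 and -1.38 for PTBP2 (calls lost), and the PTBP3 no-crosslinking effect of RBFOX2 turned to 0.23.

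With peaks of p below 1e-05, without PAGE, calls were gained for PTBP3 against hnRNPA1 (0.78) and PTBP1 against hnRNPc (-0.74) and lost for PTBP2 against RBFOX2 (-0.21) and for no crosslinking in hnRNPA1 on PTBP1 (0.29) and PTBP3 (-0.15), in hnRNPc on PTBP2 (0.47) and in RBFOX2 on PTBP2 (-0.44). Signs turned for PTBP3 against hnRNPc (0.33) and for no crosslinking on PTBP2 in hnRNPA1 (-0.72) and PTBP3 in hnRNPc (0.68). With PAGE, PTBP1 against RBFOX2 was called (-2.34). Signs turned for PTBP1 against hnRNPA1 (-0.15), PTBP3 against hnRNPc (-0.64), PTBP2 against RBFOX2 (0.16), and for no crosslinking in hnRNPA1 on PTBP2 (-0.48) and PTBP3 (0.30) and in hnRNPc on PTBP3 (-0.082). Joining peaks gave 0.10 for PTBP1 against hnRNPc without PAGE (sign turned) and -2.38 with it (call lost).

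By share of reads without PAGE, calls were gained for PTBP3 against hnRNPA1 (0.84) and PTBP1 against hnRNPc (-1.97). Signs turned for PTBP1 against hnRNPA1 (0.024), PTBP3 against hnRNPc (0.022), PTBP2 against RBFOX2 (1.76), and for no crosslinking in hnRNPA1 on PTBP1 (-0.059) and PTBP2 (-1.57, now called), in hnRNPc on PTBP2 (-0.57) and PTBP3 (0.17) and in RBFOX2 on PTBP1 (-0.32). With PAGE, the PTBP2 call against hnRNPc was lost (-1.17), and PTBP1 against RBFOX2 (-3.37) and no crosslinking in hnRNPI on PTBP2 (-4.58) were called. Signs turned for PTBP2 against RBFOX2 (0.90) and for no crosslinking in hnRNPA1 on PTBP1 (-0.87) and PTBP2 (-0.95) and in RBFOX2 on PTBP1 (-1.07) and PTBP2 (-1.17).

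Replicate numbers did not pair the libraries. With the replicate block, PTBP2 against hnRNPc with PAGE stayed at -2.32 and lost its call (adjusted p = 0.054), and no other named call between proteins or of hnRNPI without crosslinking changed. Fits on crosslinked libraries only, added after seeing the data, gained PTBP3 against hnRNPA1 without PAGE (0.33, adjusted p = 0.0283) and lost PTBP1 against hnRNPc with PAGE (-2.55, adjusted p = 0.113). Positions in 4 of 6 libraries gave an overlap of 100% for PTBP1 sites. PTBP3 had 10 sites with positions in 6 of 6 libraries and 11 with p below 1e-05, against 19.

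Leaving out 1 library gave, without PAGE, -0.59 to -0.40 for PTBP1 against hnRNPA1. With PAGE, hnRNPI against hnRNPc ranged from -4.59 to -0.51 for PTBP1, -3.34 to -1.30 for PTBP2 and -0.25 to 0.66 for PTBP3, and PTBP1 against RBFOX2 from -1.65 to -0.98. No crosslinking in hnRNPI ranged from 2.72 to 3.14 for PTBP1 and -3.09 to 0.33 for PTBP2, in hnRNPc from -3.90 to 0.18 for PTBP1 and -0.25 to 0.66 for PTBP3, and in RBFOX2 from -0.28 to 0.062 for PTBP3. The PTBP2 effect of hnRNPI minus the mean of the others ranged from -2.75 to 0.67, the PTBP1 site overlap from 75% to 100% and that of PTBP2 from 15.6% to 26.5%.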
